A study of Mus musculus with 10 samples.

Results

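The oligodendrocyte lineage genes described here are Olig1, Olig2, Sox10, Nkx2-2, Myrf, Pdgfra, Gpr17, Mbp and Cnp, 9 of the 57180 genes in the RNA table. They were chosen by name, and CUT&Tag regions were taken where the deposited annotation assigned them to 1 of these genes, which gave 14 of 69418 regions, spread over 6 of the 9 genes. The tested cells were neural stem and progenitor cells (NSPCs) labelled Mina53-KO, from mouse brain with treatment "non", with 3 RNA-seq libraries (poly(A) RNA) and 2 CUT&Tag libraries. They were set against NSPCs labelled WT, also from brain and untreated, again with 3 RNA-seq and 2 CUT&Tag libraries. Mina53 is the older name of Riox2, a JmjC-domain oxygenase gene, and the series title ties it to asymmetric dimethylation of arginine 3 on histone H4. The labels give no age, strain, brain region, culture condition, way of making the KO, antibody or spike-in. They leave it unsaid whether each library is a culture or animal of its own, so the p-values below reflect library-to-library spread, which may be technical.

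Oligodendrocytes are the myelin-forming glia of the central nervous system, and arise from neural progenitors through a migratory precursor. Olig1, Olig2 and Nkx2-2 are transcription factors of the lineage, and Sox10 and Myrf switch on myelin genes. Pdgfra is the receptor through which precursors respond to platelet-derived growth factor, and Gpr17 is a G protein-coupled receptor of committed precursors. Mbp and Cnp encode myelin basic protein and the enzyme CNPase of the myelin sheath. Neural progenitors kept with growth factors are known to express Olig1 and Olig2 without becoming oligodendrocytes.

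The RNA libraries held 19922983 to 25939348 counts, and the CUT&Tag libraries 2913959 to 4038765 reads in regions. Riox2 measured 3.58 ± 0.279 CPM in KO and 18.5 ± 1.39 CPM in WT (SD, n = 3 each; CPM are counts relative to the library total, TMM-scaled), with 66 to 95 counts still present in each KO library. All 12 stem and radial glia markers were expressed enough to test, and their summed level was 8391 to 9424 CPM in KO and 7377 to 7659 CPM in WT. Vim made up 2738 to 3632 CPM of the sum in KO and 1822 to 2241 CPM in WT. The markers moved both ways, 7 with a positive and 5 with a negative log2 fold change, KO over WT. Erythroid markers summed to at most 0.0831 CPM in KO and 0.0422 CPM in WT, and microglia markers to 1.87 to 2.22 CPM in KO and 2.03 to 2.42 CPM in WT. The first principal component held 47.4% of the variance and parted KO 1, KO 2 and WT 1 from KO 3, WT 2 and WT 3, and mitochondrial genes took 2.31% to 2.68% of the counts in those 3 libraries and 3.52% to 5.71% in the other 3.

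The CUT&Tag regions nearest to a transcription start site (TSS) included 1 at the start of the assigned Olig2 transcript and 1 at that of the assigned Pdgfra transcript. The promoters of these genes are shown because, among members with such a region, a promoter sequence was at hand for them. The RefSeq promoter table, on GRCm38.p6, held 4 of the 9 members, each with 250 bases before and 50 after the annotated start. The CUT&Tag coordinates are on GRCm39, so the starts were not compared across builds. A printed promoter may therefore belong to another transcript than the one its region was assigned to. Capitals mark CANNTG, the E-box that bHLH proteins such as OLIG2 bind, and CCAAT on either strand, which reads ATTGG on the printed strand where it lies on the other.
Olig2 (chr16:91225300-91225599, plus strand): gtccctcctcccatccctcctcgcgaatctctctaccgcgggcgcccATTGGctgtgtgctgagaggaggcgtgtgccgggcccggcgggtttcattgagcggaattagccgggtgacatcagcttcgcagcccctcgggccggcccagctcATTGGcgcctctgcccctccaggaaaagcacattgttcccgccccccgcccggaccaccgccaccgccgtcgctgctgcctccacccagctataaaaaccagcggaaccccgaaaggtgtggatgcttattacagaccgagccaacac
Pdgfra (chr5:75152001-75152300, plus strand): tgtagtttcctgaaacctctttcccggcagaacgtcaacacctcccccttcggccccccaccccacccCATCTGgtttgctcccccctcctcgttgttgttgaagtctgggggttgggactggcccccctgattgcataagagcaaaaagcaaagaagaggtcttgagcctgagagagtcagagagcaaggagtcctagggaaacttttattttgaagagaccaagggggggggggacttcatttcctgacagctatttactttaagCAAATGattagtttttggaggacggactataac
The Olig2 promoter held 2 ATTGG matches and no CANNTG match in this window, and the Pdgfra promoter held 2 CANNTG matches and no CCAAT match, so the marked motifs do not overlap. Of 32851 promoters of the same length, 72.3% held CANNTG and 37.4% held CCAAT on either strand, so neither kind of match is rare. G and C made up 65.0% of the Olig2 window and 51.0% of the Pdgfra window.

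The 9 members fell into very different levels in these cells. Set per kilobase of the deposited gene length (RPKM, computed from the scaled CPM), Olig1 ranged over 648.9 to 1119 RPKM across the 6 libraries and Olig2 over 283.5 to 426.9 RPKM, above 99.76% and 99.04% of the 15298 tested genes. Cnp ranged over 39.2 to 63.5 RPKM and Nkx2-2 over 11.4 to 19.1 RPKM. Each of these 4 ranges lay apart from the next one down. Gpr17 followed with 1.31 to 3.62 RPKM, and its lowest library lay just above the highest of Pdgfra, which ranged over 0.821 to 1.30 RPKM. Myrf ranged over 0.471 to 1.05 RPKM, Mbp over 0.344 to 0.734 RPKM and Sox10 over 0.0455 to 0.419 RPKM. From Pdgfra down, the range of each gene overlapped that of its neighbour in this order. Within each of the 6 libraries Sox10 was the lowest. The order of Pdgfra and Myrf, and of Myrf and Mbp, changed between libraries.

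All 9 members passed the filter on low counts, and edgeR's quasi-likelihood test called 1 of them (Benjamini-Hochberg adjusted p below 0.05), which was Myrf, higher in KO. Of all tested genes, 3.43% were called, 1.77% higher and 1.66% lower in KO. Myrf was also the member whose groups did not overlap, which held for 19.0% of all tested genes: 9.69% lay above and 9.26% below every WT library. The log2 fold change, KO over WT, was positive for 8 members and negative for 1, with a median of 0.22 against 0.006 over all tested genes. In bulk RNA, fewer cells of a type and less RNA per cell cannot be told apart.

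Olig1 and Olig2, neighbouring genes on chromosome 16, did not pass the test. Olig1 measured 2094, 2340 and 1403 CPM in KO 1, KO 2 and KO 3, against 2418, 1415 and 1729 CPM in WT 1, WT 2 and WT 3. The highest and the second lowest library were WT and the lowest was KO, so the groups overlapped throughout. Its log2 fold change was 0.07 (SE 0.24, 95% interval -0.48 to 0.62, adjusted p = 0.953, edgeR). Olig2 measured 969, 1002 and 717 CPM in KO, against 1080, 756 and 824 CPM in WT, in the same order of replicates. The log2 fold change of Olig2 was 0.01 (SE 0.18, 95% interval -0.39 to 0.42, adjusted p = 0.988, edgeR). Together the 2 genes took 0.287% ± 0.0655 of all counts in KO and 0.272% ± 0.0726 in WT (SD, n = 3 each; exact permutation p = 0.9, two-sided, where 3 against 3 cannot give less than 0.1). The ratio of Olig1 to Olig2 per length was 2.52 ± 0.222 in KO and 2.42 ± 0.217 in WT (exact permutation p = 0.6, two-sided).

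Nkx2-2, a homeodomain factor of ventral progenitors and of oligodendrocyte precursors, measured 37.1, 40.5 and 26.2 CPM in KO, against 36.9, 24.2 and 27.9 CPM in WT. The WT 1 library lay beside the 2 higher KO libraries, and the groups overlapped (log2 fold change 0.22, SE 0.21, adjusted p = 0.812, edgeR). The antisense transcript of the locus, Nkx2-2os, did differ, and it was looked at because it overlaps Nkx2-2. Nkx2-2os had 3, 8 and 7 counts in KO, against 31, 34 and 47 counts in WT. Every KO library lay below every WT library, at 0.251 ± 0.094 CPM in KO and 1.51 ± 0.269 CPM in WT (SD, n = 3 each; log2 fold change -2.54, SE 0.36, adjusted p = 0.00885, edgeR). Its adjusted p was 0.0673 without WT 3 and at most 0.0414 without any of the others. The kit marks strand, but how the counting treated it is unknown here, so reads of Nkx2-2 and Nkx2-2os may not have been told apart.

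Sox10, which activates myelin genes together with Myrf, was near the limit of detection. It had 23, 13 and 13 counts in KO, against 19, 3 and 10 counts in WT. The count of 3 in WT 2 has an exact Poisson interval of 0.619 to 8.77 (95%, counting error only), and the groups overlapped (log2 fold change 0.71, SE 0.61, adjusted p = 0.78, edgeR). The 95% interval of the change, -0.69 to 2.12, holds both a loss and a gain, so a difference in Sox10 was not detectable at this depth.

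Myrf, a membrane-bound factor that is cleaved to release an activator of myelin genes, was the called member. It had 120, 132 and 120 counts in KO, against 70, 65 and 85 counts in WT. In scaled units it measured 5.93, 5.49 and 4.67 CPM in KO, against 2.95, 2.67 and 3.28 CPM in WT, so every KO library lay above every WT library. The log2 fold change was 0.85 (SE 0.18, 95% interval 0.43 to 1.27, adjusted p = 0.0462, edgeR), a 1.80-fold higher level in KO. The call sits at the threshold: it held without KO 3 (adjusted p = 0.0465) and was lost without each of the other 5 libraries (adjusted p 0.0958 without WT 1, 0.135 without WT 2, 0.164 without WT 3, 0.22 without KO 1 and 0.168 without KO 2), while the log2 fold change stayed between 0.76 and 0.93. It was also lost with no count filter (0.0537), with no robust dispersion (0.052) and with replicate number as a block (0.129). It held with RLE scaling (0.0474, edgeR), with unscaled library totals (0.0455, edgeR) and by DESeq2 (0.00688).

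**Figure D1:**
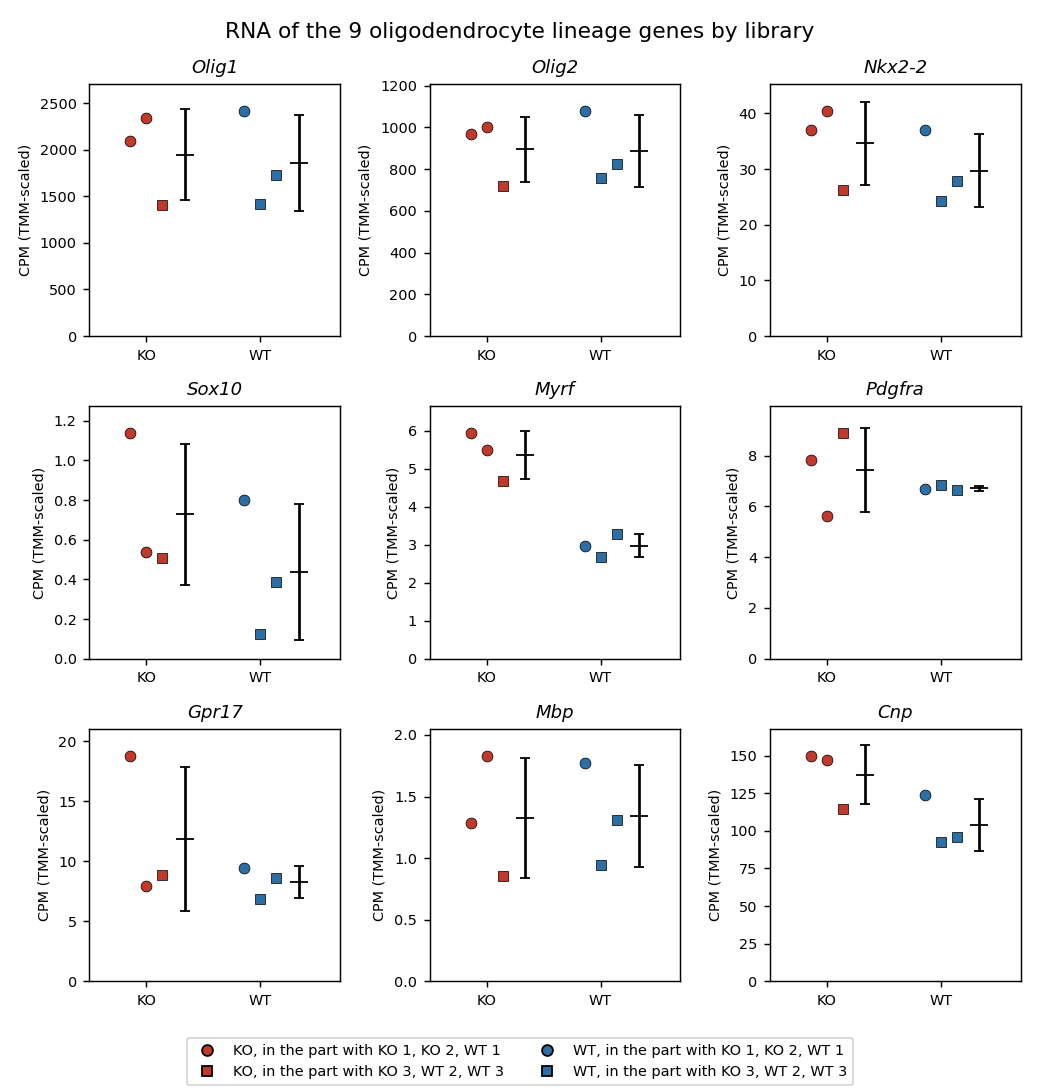
Level of each of the 9 members in CPM (TMM-scaled, linear axis from 0) in the 3 KO libraries (red, left) and the 3 WT libraries (blue, right); round points are KO 1, KO 2 and WT 1, square points KO 3, WT 2 and WT 3, and bars are the mean ± SD. Myrf is the gene whose KO points, 4.67 to 5.93 CPM, all lie above its WT points, 2.67 to 3.28 CPM; in Olig1, Olig2 and Nkx2-2 the round points lie above the square points in either group.

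Neither of the precursor receptors passed the test. Pdgfra measured 7.81, 5.61 and 8.87 CPM in KO, against 6.67, 6.82 and 6.63 CPM in WT. The WT libraries were nearly equal and lay inside the KO range (log2 fold change 0.15, SE 0.19, 95% interval -0.29 to 0.59, adjusted p = 0.876, edgeR). Gpr17 had 380, 191 and 228 counts in KO, against 223, 166 and 223 counts in WT. The KO 1 library stood above the other 5 at 18.8 CPM, where the other KO libraries measured 7.94 and 8.87 CPM and the WT libraries 6.82 to 9.41 CPM. The log2 fold change of Gpr17 was 0.51 (SE 0.32, adjusted p = 0.62, edgeR), and without KO 1 it was 0.01. Gpr17 overlaps Lims2, whose counts of 5 to 20 in KO and 10 to 18 in WT are small beside those of Gpr17.

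The myelin protein genes differed greatly in level. Mbp had 26, 44 and 22 counts in KO, against 42, 23 and 34 counts in WT. These are close together in both groups (log2 fold change -0.02, SE 0.36, adjusted p = 0.991, edgeR), and the 95% interval of -0.85 to 0.80 is wide on either side of 0. Cnp, which is also expressed in precursors, measured 149.7, 147.2 and 114.5 CPM in KO, against 124, 92.4 and 95.6 CPM in WT. All but KO 3 of the KO libraries lay above WT 1, the highest WT library. Cnp had a log2 fold change of 0.40 (SE 0.16, unadjusted p = 0.0351, adjusted p = 0.3, edgeR), and 13.7% of all tested genes had an unadjusted p under 0.05. Cnp overlaps Dnajc7, which measured 181 ± 8.35 CPM in KO and 172 ± 5.56 CPM in WT (SD, n = 3 each, adjusted p = 0.877, edgeR).

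Olig1, Olig2, Nkx2-2, Sox10 and Cnp had levels that followed the split of the libraries on the first principal component. In the part with KO 1, KO 2 and WT 1, Olig1 measured 2094 to 2418 CPM, against 1403 to 1729 CPM in the part with KO 3, WT 2 and WT 3. Olig2 measured 969 to 1080 CPM and 717 to 824 CPM in the same parts, Nkx2-2 36.9 to 40.5 CPM and 24.2 to 27.9 CPM, and Cnp 124 to 149.7 CPM and 92.4 to 114.5 CPM. Sox10, with its few counts, measured 0.54 to 1.14 CPM and 0.123 to 0.506 CPM. In these 5 members the parts did not overlap, and in Myrf, Pdgfra, Gpr17 and Mbp they did. Because these counts also defined the parts, 41.8% of all tested genes had parts that did not overlap, and no test between the parts was made. The mitochondrial share moved with the same split, and its part in these levels was not tested.

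Within each part the KO libraries of Cnp lay above the WT libraries, at 149.7 and 147.2 CPM in KO against 124 CPM in WT, and at 114.5 CPM in KO against 92.4 and 95.6 CPM in WT. The KO libraries of Myrf did so too, and 21.6% of all tested genes did. With the part as a covariate, Cnp was called higher in KO (log2 fold change 0.27, SE 0.07, adjusted p = 0.031, edgeR), as it was with the class of libraries by mitochondrial share, KO 3 and WT 2 being high (0.39, adjusted p = 0.0243) and with the log2 mitochondrial share itself (0.34, adjusted p = 0.00748). These fits called 11.1%, 10.5% and 15.3% of all genes, and each called 2 members, Cnp and Myrf. The part was derived from these same counts, Cnp among them, so the adjusted p-values with it, here and below, are descriptive only. Olig1 and Olig2 turned the other way within the parts, where every KO library lay below every WT library, as for 20.9% of all tested genes. Their log2 fold changes with the part as a covariate were -0.14 and -0.14, and neither passed (adjusted p = 0.405 for Olig1 and 0.304 for Olig2, edgeR).

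**Figure D2:**
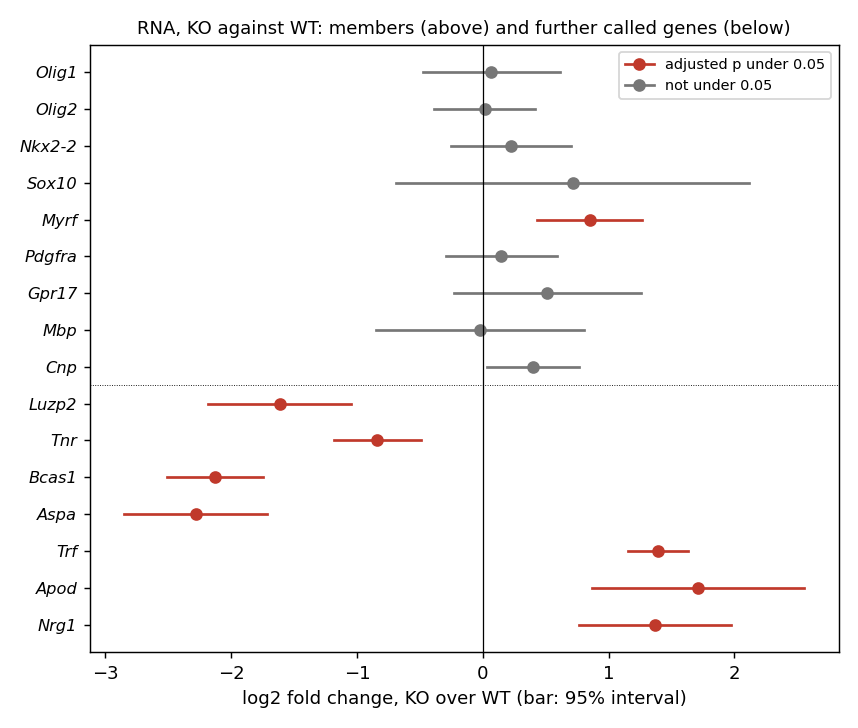
Log2 fold change of RNA, KO over WT, with its 95% interval from the edgeR fit, for the 9 members (above the dotted line) and the 7 further called genes of the lineage lists (below); red marks an adjusted p under 0.05. Myrf is the red member, at 0.85, and the further genes lie on either side of 0, from -2.28 for Aspa to 1.71 for Apod.

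Over the wider lists of the lineage, 94 of 116 listed genes were expressed enough to test, and 3 were called higher and 4 lower in KO (3.43% of all tested genes were called), with a median log2 fold change of -0.06. Of 14 tested precursor genes, 2 fell and 12 did not pass. Luzp2, a leucine zipper protein gene of precursors and astrocytes, measured 12.3, 13.3 and 21.6 CPM in KO, against 38.5, 47.9 and 58.4 CPM in WT. Its KO libraries all lay below its WT libraries (log2 fold change -1.61, SE 0.25, adjusted p = 0.012, edgeR). Tnr, the gene of the matrix protein tenascin-R, measured 28.3, 26.0 and 35.8 CPM in KO, against 47.6, 55.7 and 57.6 CPM in WT (log2 fold change -0.84, adjusted p = 0.0237, edgeR). Without KO 1, KO 2 or WT 3 both genes lost their call (adjusted p 0.0563, 0.0614 and 0.0745 for Luzp2 and 0.129, 0.102 and 0.141 for Tnr), and Tnr also without WT 2 (0.073).

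The other tested precursor genes spanned a wide range of levels. Ptprz1, the gene of a receptor phosphatase of precursors and radial glia, measured 2619 to 3527 CPM in KO and 2546 to 3249 CPM in WT (adjusted p = 0.995, edgeR). Cspg4, which encodes the NG2 proteoglycan of precursors, measured 80.9 to 118 CPM in KO and 74.9 to 140.0 CPM in WT (adjusted p = 0.937, edgeR). The next by p were Cacng4 with a log2 fold change of 0.50, Vcan with -0.53 and Pcdh15 with 0.48, at adjusted p of 0.0772, 0.1 and 0.2 (edgeR). DESeq2 called Cacng4 higher and Vcan lower (adjusted p 0.00946 and 0.0164), and all 3 were called with each of the 3 library covariates described for Cnp (adjusted p of at most 0.00559, 0.00387 and 0.0336, edgeR).

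Bcas1, which marks newly forming, early myelinating oligodendrocytes, was the called gene among 12 tested genes of committed and newly formed cells. It measured 21.4, 20.8 and 15.8 CPM in KO, against 98.3, 75.4 and 79.8 CPM in WT, a gap much wider than the spread in either group. The log2 fold change of Bcas1 was -2.13 (SE 0.17, adjusted p = 0.000568, edgeR), a 4.37-fold lower level in KO, and the call held whichever library was left out. Among the other 11, Tcf7l2 and Itpr2 had log2 fold changes of -0.38 and -0.38 and Rras2 of 0.48, at adjusted p of 0.141, 0.15 and 0.256 (edgeR). Tcf7l2 and Itpr2 were called lower by DESeq2 (adjusted p 0.0464 and 0.0484) and with each of the 3 library covariates (at most 0.031 and 0.0241, edgeR), and Rras2 with the log2 mitochondrial share alone (0.0247). Enpp6, another gene of newly formed oligodendrocytes, had too few counts to test, at 5 to 14 in KO and 2 to 9 in WT.

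Of 21 tested genes of myelin and mature oligodendrocytes, 2 rose, 1 fell and 18 did not pass, where 3.43% of all tested genes were called. Trf, the gene of the iron carrier transferrin, measured 443.7, 473.4 and 398.6 CPM in KO, against 172, 165 and 164 CPM in WT. Every KO library held more than any WT library, a 2.62-fold difference (log2 fold change 1.39, SE 0.10, adjusted p = 0.00046, edgeR). Aspa, which encodes the enzyme that splits N-acetylaspartate, measured 4.00, 3.74 and 5.57 CPM in KO, against 15.4, 26.7 and 22.7 CPM in WT. Aspa was 4.86-fold lower in KO (log2 fold change -2.28, SE 0.25, adjusted p = 0.00314, edgeR). The calls of Trf and Aspa held whichever library was left out. Apod, the gene of apolipoprotein D, was called at 0.692 to 0.973 CPM in KO and 0.206 to 0.347 CPM in WT (log2 fold change 1.71, adjusted p = 0.0479, edgeR), and lost its call whichever library was left out (adjusted p 0.117 to 0.167) and by DESeq2 (0.0502).

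Defining genes of the mature cell were close to absent. Mog, Mag, Opalin, Ermn and Klk6 had at most 4 counts in any KO or WT library, and Klk6 had none. Car2 and Mal had log2 fold changes of -0.39 and -0.98, at adjusted p of 0.0693 and 0.16 (edgeR). DESeq2 called Car2 lower (adjusted p 0.00308), as did each library covariate (at most 0.0066, edgeR), and Mal was called with the log2 mitochondrial share alone (0.0461).

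Among 25 tested regulators of oligodendrocyte differentiation edgeR called none and DESeq2 called 1, Id4, where DESeq2 called 958 of all 15298 genes. An unadjusted p under 0.05 (edgeR) was found for 13.7% of all tested genes and for 3 of these regulators. These were Id4 and Id2, inhibitors of bHLH factors, with log2 fold changes of -0.76 and -0.26, and Hes5, a Notch target, with 0.81 (adjusted p 0.0589, 0.289 and 0.244, in that order). With each of the 3 library covariates Id4 and Hes5 were called (adjusted p of at most 0.00957 and 0.0389, edgeR), and Id2 with the log2 mitochondrial share alone (0.0281). Of 22 tested growth factors and receptors of the lineage, 1 rose and 21 did not pass. Nrg1, a ligand of ErbB receptors, measured 2.42, 2.04 and 3.11 CPM in KO, against 0.971, 1.15 and 0.81 CPM in WT (log2 fold change 1.37, SE 0.26, adjusted p = 0.0311, edgeR), and lost its call whichever library was left out (adjusted p 0.0578 to 0.179). Pdgfa, the main ligand of the Pdgfra receptor, measured 14.04 to 16.1 CPM in KO and 12.3 to 14.1 CPM in WT (adjusted p = 0.657, edgeR), and Pdgfc, another ligand, had a log2 fold change of -0.59 (adjusted p = 0.0631, edgeR). Lif, a cytokine gene, and Gli2, which encodes a factor of Hedgehog signalling, had log2 fold changes of 0.81 and 0.77 (adjusted p 0.145 and 0.16, edgeR). Pdgfc was called lower by DESeq2 (adjusted p 0.00474) and with each library covariate (at most 0.00822, edgeR), and Lif and Gli2 were called higher with the mitochondrial class (0.0112 and 0.0116) and the log2 mitochondrial share (0.0173 and 0.0313).

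**Figure D3:**
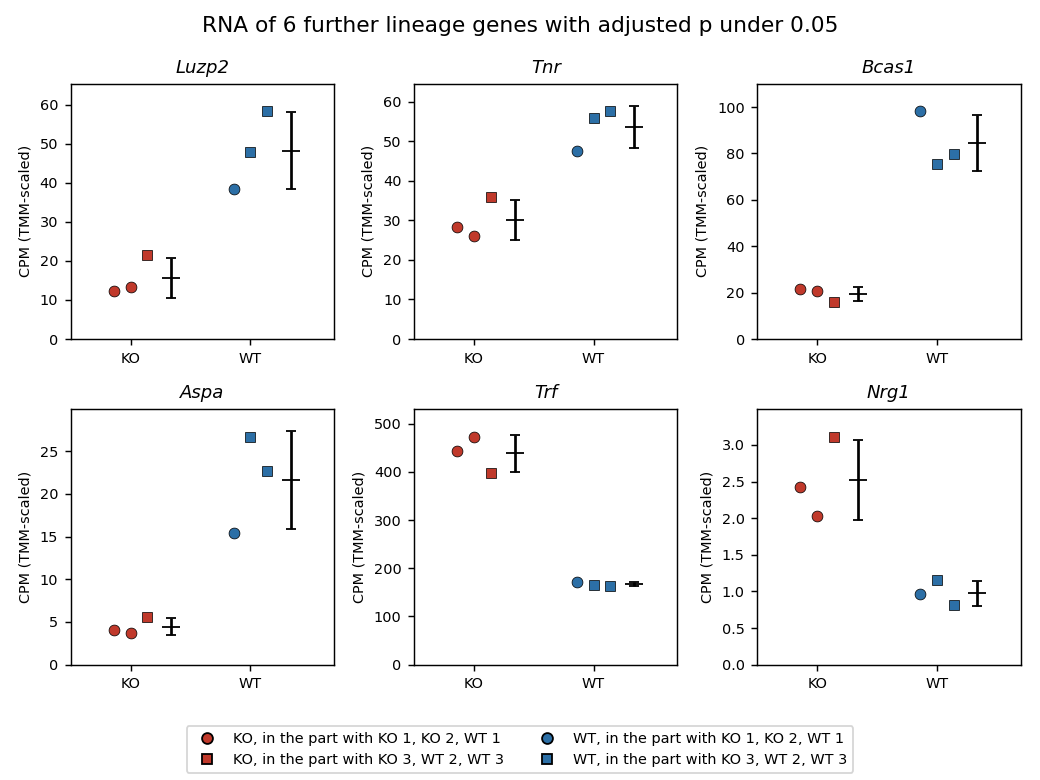
Level in CPM (TMM-scaled, linear axis from 0) of 6 of the 7 further called lineage genes, in the 3 KO libraries (red, left) and the 3 WT libraries (blue, right), with the mean ± SD; point shapes mark the 2 parts of the first principal component. Luzp2, Tnr, Bcas1 and Aspa have their KO points below their WT points, and Trf, at 398.6 to 473.4 CPM in KO and 164 to 172 CPM in WT, and Nrg1 have them above.

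Several of these genes are also expressed by other glia, and markers of other cell types moved in the same libraries. For the counts of calls below, 3.43% of all tested genes were called, 1.77% higher and 1.66% lower in KO. Of the 12 stem and radial glia markers, 2 rose, Tnc (log2 fold change 1.18) and Vim (0.69), and 2 fell, Hopx (-1.04) and Slc1a3 (-0.47). The call of Tnc held whichever library was left out, and those of Vim, Hopx and Slc1a3 held in 2, 2 and 1 of the 6 such fits. Of 10 tested astrocyte markers, 4 fell (S100b, Sparcl1, Agt and Aldoc), and their list summed to 2451 to 2804 CPM in KO and 3158 to 3903 CPM in WT. Aldoc made up 893 to 1062 CPM of it in KO and 1337 to 1726 CPM in WT. The log2 fold change was negative for 8 of the 10 and positive for 2, the larger being Gfap at 0.36 (adjusted p = 0.28, edgeR). S100b and Sparcl1 kept their call in all 6 fits that left out a library, Agt in 4 (adjusted p 0.0563 without KO 1 and 0.0784 without WT 3, edgeR) and Aldoc in 0 (0.0536 to 0.179). Of 10 tested neuron markers, 3 rose (Nefm, Nefl and Gap43), and their list summed to 952 to 1151 CPM in KO and 684 to 866 CPM in WT. Most of that sum was Map2, at 659 to 928 CPM in KO and 518 to 721 CPM in WT, which did not pass (adjusted p = 0.693, edgeR). Nefm, Nefl and Gap43 kept their call in 5, 4 and 2 of the 6 fits. The log2 fold change was positive for 7 of the 10 neuron markers and negative for 3. Among the latter were Snap25 (-0.56) and Syt1 (-0.59), which did not pass (adjusted p 0.186 and 0.591, edgeR). Of the positive ones, Dcx (1.59) and Tubb3 (0.88) did not pass either (adjusted p 0.0999 and 0.103, edgeR). DESeq2 called 5 of the 10 higher, Dcx and Tubb3 among them, and 0 lower, where it called 958 of all 15298 genes. The fibroblast and meningeal list summed to 17.8 to 20.5 CPM in KO and 29.9 to 35.9 CPM in WT, with Dcn and Lum at no more than 2 counts in any library. Its calls went both ways, Acta2 (log2 fold change -1.03) and Foxc1 (-0.85) being lower and Twist1 (2.69) higher in KO, and they held in 3, 3 and 1 of the 6 fits. Twist1 was near the limit of detection, at 0.544 to 0.915 CPM in KO and 0.0422 to 0.154 CPM in WT. Col1a1 (0.06) and Col3a1 (0.10) did not pass (adjusted p 0.98 and 0.973, edgeR). The endothelial and pericyte list summed to 55.2 to 62.8 CPM in KO and 23.3 to 31.4 CPM in WT, nearly all of it Flt1, with Cldn5 and Cdh5 at 0 in all libraries. Flt1 was called higher in KO, at 51.6 to 59.1 CPM against 21.3 to 28.6 CPM in WT (adjusted p = 0.00577, edgeR). Its call held in all 6 fits that left out a library. The other tested genes of this list, Rgs5 and Kdr, also had every KO library above every WT library. Neither passed (adjusted p 0.102 and 0.122, edgeR). The Schwann cell and neural crest list, of interest since Sox10 and Mbp are also expressed there, summed to 40.8 to 51.5 CPM in KO and 44.2 to 54.8 CPM in WT, with 0 of its 5 tested genes called by edgeR or DESeq2 and 0 at an unadjusted p under 0.05 by edgeR. The part of these markers in the values of the lineage genes was not tested.

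The genes most like Olig2 and Myrf across the 6 RNA libraries were found by Pearson's r of log2 CPM over 11675 other genes whose mean log2 CPM was 1 or more. Twf2 (r = 0.9985), Nop53 (r = 0.9977) and Rab4b (r = 0.9972) were most like Olig2, and Nop53 measured 94.6, 99.5 and 58.3 CPM in KO, against 109, 60.9 and 71.7 CPM in WT. Phkg2 (r = 0.995), Fzd5 (r = 0.9929) and Pdlim1 (r = 0.9914) were most like Myrf, and Fzd5 measured 20.27, 19.91 and 18.14 CPM in KO, against 11.1, 9.87 and 12.1 CPM in WT. These are the highest of 11675 values over 6 libraries that share their 2 parts and their depth, and are a description only.

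The CUT&Tag comparison asked whether the chromatin signal at the members differed between KO and WT. None of the 14 regions assigned to a member was called by edgeR or DESeq2, where 0.00722% of all 69209 tested regions were called; 1 had an unadjusted p under 0.05, against 5.35% of all regions. In 3 of the 14 the groups did not overlap, each with KO below WT, and 34.7% of all regions had groups that did not overlap. The authors' peak marks covered 9 and 5 of the 14 in KO and 8 and 8 in WT, where they covered 58.6% and 44.4% of all regions in KO and 30.1% and 32.9% in WT. The region at the Olig2 start (chromosome 16, 91022148 to 91022617, GRCm39, promoter) held 74 and 39 reads in KO, against 49 and 44 reads in WT. The WT libraries lay between the KO libraries (log2 fold change -0.06, SE 0.30, adjusted p = 0.988, edgeR), and the authors marked a peak in KO 1 alone. The region at the start of the assigned Pdgfra transcript (chromosome 5, 75316426 to 75317239, promoter) held 157 and 162 reads in KO, against 124 and 109 reads in WT. It was marked as a peak in all 4 libraries and held more reads than 98.4% of all regions, although the RNA of Pdgfra was low. At 814 bp it was also the widest of the 14, and reads were not set per base. Scaled to the reads in regions it measured 38.3 and 48.0 CPM in KO, against 40.1 and 37.7 CPM in WT, so the groups overlapped (log2 fold change 0.14, SE 0.19, adjusted p = 0.948, edgeR). The region at the Myrf start (chromosome 19, 10218027 to 10218277, promoter) held 81 and 46 reads in KO, against 38 and 78 reads in WT, and was marked in WT 2 alone (log2 fold change -0.21, SE 0.27, adjusted p = 0.946, edgeR).

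Mbp, whose RNA was scarce, had 4 regions and the most CUT&Tag reads of the members. The most read of all 14 regions lay upstream of Mbp (chromosome 18, 82480213 to 82480666, intergenic, deposited distance to the TSS -12605 bp), with 158 and 160 reads in KO, against 134 and 156 reads in WT, and a peak marked in each library (log2 fold change -0.18, SE 0.18, adjusted p = 0.936, edgeR). Deposited distances are to the start of the transcript assigned to each region, which is not the same transcript for all regions of Mbp or Pdgfra. An intronic Mbp region (82585704 to 82586116, distance 4317 bp from another start than the one above) held 94 and 70 reads in KO, against 87 and 98 reads in WT. In scaled units it measured 22.9 and 20.7 CPM in KO, against 28.1 and 33.9 CPM in WT (log2 fold change -0.50, SE 0.23, unadjusted p = 0.0265, adjusted p = 0.903, edgeR). In the other 2 intronic Mbp regions the log2 fold changes were -0.46 and -0.06. Summed over its 4 regions, Mbp had 416 and 343 reads in KO, against 359 and 370 reads in WT, or 184.8 and 183.0 CPM in KO and 204.7 and 222.7 CPM in WT (log2 fold change -0.22, SE 0.11, adjusted p = 0.672, edgeR). The KO libraries lay below the WT libraries, and of the 13627 genes tested by summed reads 0.0881% were called and 7.66% had an unadjusted p under 0.05, Mbp not among them.

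The Olig1 start itself had no assigned region; the nearest (chromosome 16, 91062899 to 91063207, intergenic, distance -3453 bp) held 75 and 66 reads in KO, against 57 and 61 reads in WT. It was marked as a peak in all 4 libraries, as were 10.0% of all regions, and its scaled values of 18.3 and 19.6 CPM in KO and 18.4 and 21.1 CPM in WT overlapped (log2 fold change -0.06, SE 0.26, adjusted p = 0.985, edgeR). The 2 regions assigned to Nkx2-2 lay at -18772 and -21342 bp from its TSS and were thin, with 6 to 36 reads per library in KO and 12 to 40 in WT. Sox10, Gpr17 and Cnp had no assigned region, while 68.1% of the genes tested in RNA had at least 1. By summed reads the log2 fold changes were -0.11 for Olig1, -0.01 for Olig2, -0.55 for Nkx2-2, -0.23 for Myrf and 0.13 for Pdgfra, with adjusted p of 0.746 or more (edgeR). The widest of their 95% intervals, -1.22 to 0.12 for Nkx2-2, leaves its change poorly bounded at this depth. In the authors' deposited table, the log2 fold change ranged from -0.84 to 0.22 over the 14 regions, and each q-value was 1.

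**Figure D4:**
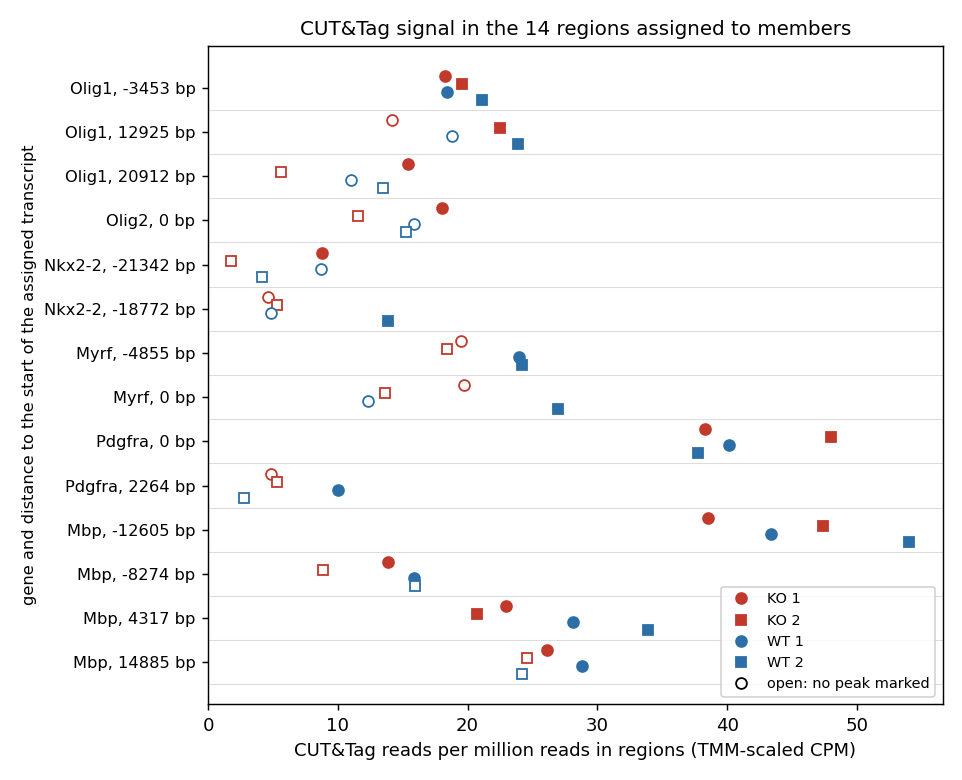
CUT&Tag signal, in CPM of reads in regions (TMM-scaled, linear axis from 0), in each of the 14 regions assigned to a member, labelled by gene and deposited distance to the start of the assigned transcript; red points are KO, blue points WT, circles replicate 1 and squares replicate 2, and filled points mark libraries with a peak in the authors' marks. The widest region (814 bp), at the start of the assigned Pdgfra transcript, and the one at -12605 bp from Mbp (454 bp) carry the most reads. They hold 37.7 to 54.0 CPM over both groups, not set per base. In no region was the difference between KO and WT called.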

How the data were processed

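NSPC libraries labelled Mina53-KO or WT were grouped by their titles. The authors' RNA table holds expected counts per gene as deposited, of which 7.92% to 9.74% per library are not whole; they were rounded. The deposited CUT&Tag counts are whole reads per merged region. Per the file headers, that table also holds the authors' RPM, log2 fold change, p-value and q-value, of which the log2 fold change and q-value are quoted. HISAT2, StringTie and GRCm39 are named in the submitters' processing notes; the counting tool and its strand setting, the peak caller and the authors' test are not given by the sources used here. One gene of a duplicated symbol, Nrg1, was kept by its reference ID.

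Both assays were fitted over all features with edgeR 4.0.16 in R 4.3.3 (TMM, filterByExpr with a minimum count of 10, robust glmQLFit, glmQLFTest, KO over WT) and p-values adjusted by Benjamini-Hochberg (called below 0.05); 15298 genes, 69209 regions and 13627 genes by summed reads were tested. The SE is the log2 fold change divided by the square root of F, and 95% intervals use the fit's degrees of freedom. CUT&Tag CPM are relative to reads in regions, so a shift common to all regions cannot be seen. The fits were tested on simulated data. Named genes were the 9 members, Riox2, and in each lineage list the called genes and up to 3 further genes with the smallest p; Nkx2-2os, Lims2 and Dnajc7 were looked up as overlapping genes, and Ptprz1, Cspg4, Enpp6, Pdgfa and the near-absent mature genes were named for their roles, after their values were seen; 1 gene that the rule names is not reported here. Members and lists were chosen with earlier results of these data known. DESeq2 1.42.0, RLE scaling, unscaled library totals, other filters, no robust dispersion, a replicate block, library covariates and leaving out each library were tried as alternatives. The labels give no pairing by replicate number, and the main fits took the libraries as unpaired.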

Additional observations from a re-analysis of the deposited data

How the results depend on the processing

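The CUT&Tag result of no called member region held under every alternative run, and the calls of Bcas1, Trf and Aspa held under each setting and without each library. The count of called members was 0 with no count filter, with no robust dispersion, within the high mitochondrial class and within either part of the first component, and 2 with each of the 3 library covariates; leaving out a library gave 0 to 1. Over all genes, 958 were called by DESeq2, 1605 with the mitochondrial class, 1695 with the part and 2341 with the log2 mitochondrial share as a covariate, and 243 within the high mitochondrial class; leaving out a library gave 145 to 506. The part and the numeric share were chosen after seeing the data, and the part was derived from the same counts.

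With a replicate block the RNA count was 229 with 0 members called, and Myrf had an adjusted p of 0.129 (edgeR). Same-numbered RNA libraries deviated from their group means with correlations of 0.46, -0.369 and 0.27. KO 2 and KO 3 were closer to a WT library of another number. The split on the first component enters these correlations, so they cannot show whether the replicate numbers pair the samples. The block gave 9 CUT&Tag regions; leaving out a library gave 1 to 15 regions. By summed reads 12 genes were called, against 1 by DESeq2, 4 within 5 kb of the TSS and 3 to 17 without a library.

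The sign of some uncalled values turned. Olig1 in RNA had -0.14 with the part and -0.0371 with the mitochondrial share as a covariate, -0.0124 within the high class, and -0.16 and -0.13 within the parts. Olig2 had -0.14, -0.0592, -0.0769, -0.14 and -0.13 under the same settings, and Mbp had 0.0248 within the low class. By summed CUT&Tag reads within 5 kb, Olig1 had 0.0242 and Olig2 0.0314. Without 1 library at a time, RNA values ranged from -0.10 to 0.31 for Olig1, -0.10 to 0.18 for Olig2, -0.0121 to 0.31 for Pdgfra and -0.34 to 0.22 for Mbp; summed CUT&Tag values from -0.24 to 0.0239 for Olig1, -0.39 to 0.27 for Olig2, -0.46 to 0.0197 for Myrf and -0.0248 to 0.30 for Pdgfra. The region values turned in the same way, from -1.47 to 0.0371 and -1.84 to 0.44 for Nkx2-2, -0.0241 to 0.30 and -0.97 to 0.88 for Pdgfra, -0.68 to 0.45 for the Myrf start, -0.43 to 0.21 for the Olig2 start, -0.18 to 0.0694 for Mbp at 14885 bp, and -0.16 to 0.0371, -0.59 to 0.0815 and -1.11 to 0.33 for Olig1. The cause was not tested. Sox10 and Mbp had 3 to 44 counts per library and the regions 6 to 162 reads, so small changes there were not detectable, while Olig1 and Olig2, which turned too, had 18399 to 57301 counts.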
